A study of Homo sapiens with 3 samples.

Results

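The genes that encode NF-kappaB and the inhibitors it induces were followed in bladder cancer cells depleted of the long noncoding RNA DANCR. The set holds 10 genes, listed by name with earlier results of these data known: 5 subunits (NFKB1, NFKB2, RELA, RELB and REL) and 5 feedback genes (NFKBIA, NFKBIE, TNFAIP3, BIRC3 and IER3). Of the 10, 9 had a probe set assigned to that gene alone, out of 19775 genes with such a probe set on the array. All 9 were measured, among 12436 measured genes. BIRC3, a ubiquitin ligase of the inhibitor of apoptosis family, had none in the annotation used and is not analysed here. The 9 genes had 18 probe sets, 12 for subunits and 6 for feedback genes.

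The cells were UM-UC-3, an established human bladder cancer line. They were transfected with DANCR siRNA1, with DANCR siRNA2 or with a negative control siRNA, so that all cells received an siRNA at 75 nM with the same lipid reagent. RNA was taken at 48 h and hybridised as biotin-labelled cRNA to Affymetrix arrays, with 1 array for each of the 3 groups. There is no replicate array, so every difference below is a size on these 3 arrays, with no p-value and no error bar. The siRNAs, which define the groups, are shown here 5′ to 3′ as the labels give them, with the 2 deoxythymidines of the overhang at the end.
DANCR siRNA1: gcguacuaacuuguagcaatt
DANCR siRNA2: gagcuagagcagugacaautt
Control siRNA: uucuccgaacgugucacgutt

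NF-kappaB is a family of transcription factors that act as pairs of subunits. In resting cells the pairs are held in the cytoplasm by inhibitors of the IkB family, and a kinase complex, IKK, marks these inhibitors for destruction when a receptor such as the TNF receptor is engaged. The freed pairs then switch on target genes, among them the genes of their own inhibitors, so that the transcript level of a feedback gene such as NFKBIA is widely used as a readout of NF-kappaB activity. RELA, the main activating subunit, is made at a fairly steady level, whereas NFKB1, NFKB2, RELB and REL can themselves be NF-kappaB targets. In bladder cancer lines the pathway can drive chemokines and matrix proteases.

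This feedback runs through NF-kappaB binding motifs in the promoters of the target genes. The 250 bases upstream of the annotated start of NFKBIA (GRCh38.p14, chr14:35404750-35404999, minus strand, RefSeq) are shown because NFKBIA gave the largest difference among the feedback genes with siRNA1, and capitals mark a match to the 10-base NF-kappaB consensus motif.
NFKBIA promoter: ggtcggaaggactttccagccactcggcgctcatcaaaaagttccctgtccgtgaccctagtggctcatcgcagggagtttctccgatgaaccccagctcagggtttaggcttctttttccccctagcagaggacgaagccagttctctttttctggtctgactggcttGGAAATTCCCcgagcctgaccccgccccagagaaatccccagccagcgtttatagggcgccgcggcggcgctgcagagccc

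The match lay 72 to 81 bases before the start. Both strands were searched, over windows of 250 bases before and 50 after each RefSeq gene start, and overlapping matches were counted as 1 site. Of all 35116 promoter windows, 5.91% held a match, as did 7 of the 11 windows of members. Counted by gene, 7.09% of 27305 genes had at least 1 window with a match, by letters alone, and so did 6 of the 7 members with an entry in the promoter table. The exception was RELA, with none in its 2 windows. The members were listed as genes of this pathway, so their share is a description and no test. They also had more windows per gene, 11 for 7 members against 35116 for 27305 genes. The other measured genes with matches are shown by 30 bases around the site nearest the start, on the plus strand of GRCh38.p14, with the match in capitals, so that the shared core can be compared. They are NFKB1 (chr4:102501300-102501329), REL (chr2:60881517-60881546), TNFAIP3 (chr6:137867194-137867223) and NFKB2 (chr10:102395674-102395703).
NFKB1 site: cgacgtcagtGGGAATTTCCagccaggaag
REL site: cgtcagccgcGGGAAATTCCCctcccgcca
TNFAIP3 site: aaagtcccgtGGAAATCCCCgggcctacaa
NFKB2 site: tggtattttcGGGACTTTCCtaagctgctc
A match describes letters and does not show that a factor binds there. NFKBIE, RELB and IER3 were not analysed here for motifs.

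Before the results, the arrays and the cells were checked. DANCR had an intensity of 116 with siRNA1 and 126 with siRNA2, against 671 in the control, on its only single-gene probe set. Mean intensities were 95.3 to 96.5 over the 3 arrays. The 3′/5′ ratio of ACTB, a measure of RNA integrity, was 11.8 with siRNA1, 14.4 with siRNA2 and 11.9 in the control, and that of GAPDH was 1.29, 1.35 and 1.25 in the same order. The ACTB ratio was well above that of GAPDH on all 3 arrays, and its part in the values below was not tested. Of 9 urothelial markers with a probe set, 6 lay at or below the floor on all arrays. Among them were the uroplakins UPK1A, UPK1B, UPK2 and UPK3A. The others, GATA3, PPARG and FOXA1, were above the floor on all arrays, at 12.5 to 35.2. Of the epithelial markers, EPCAM and CDH1 lay at or below the floor, while KRT7 and KRT8 were above it on all arrays. The floor is an intensity of 10.5, the 50th percentile of all values, and lower values were raised to it. KRT18 was at 711, 1022 and 1315, and VIM at 4412, 4861 and 5322, with siRNA1, with siRNA2 and in the control. The summed level of the 6 epithelial markers was 761 with siRNA1, 1075 with siRNA2 and 1373 in the control, nearly all of it KRT18. The leukocyte markers, for cells in which REL and RELB are abundant, summed to 64.6, 58.4 and 65.6. PTPRC, CD14 and LYZ were at or below the floor, while CD3E, CD79A and CD74 were above it on all arrays, at 13.5 to 23.0.

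The first question was how the feedback genes stood in depleted cells. NFKBIA and IER3 were lower with both DANCR siRNAs, and so was the dimmer NFKBIE, while TNFAIP3 stood close to the control. The gaps were wider with siRNA1 than with siRNA2 for NFKBIA, NFKBIE and IER3. With siRNA1, 3 of the 4 measured feedback genes were at least 2-fold lower, where 1.75% of all measured genes were. That count was 2 with the floor at the 70th percentile, where NFKBIE was at -0.52 (log2), and 2 with the median over probe sets, where NFKBIA was at -0.66. It was 1 of the 2 feedback genes left without probe sets of the _s_at and _x_at kinds. With siRNA2, 0 of the 4 reached 2-fold, where 1.21% of all measured genes did. NFKBIA and IER3 are among the genes with a mean intensity of 100 or more, of which 2.05% were 2-fold lower with siRNA1 and 1.89% with siRNA2. NFKBIE is among the dimmer genes, of which 1.54% were 2-fold lower with siRNA1. No test stands behind these counts, and on bulk RNA fewer cells of a kind and less RNA per cell cannot be told apart.

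NFKBIA encodes IkB-alpha, the inhibitor that NF-kappaB induces fastest and that carries it back out of the nucleus. Its intensity was 290 with siRNA1 and 455 with siRNA2, against 723 in the control. That is 2.50-fold and 1.59-fold lower, or 40.1% and 62.9% of the control level. All 3 values were well clear of the floor. Its other probe set was dim, at 16.9 with siRNA1, 14.0 with siRNA2 and 16.9 in the control. The size of the NFKBIA difference therefore rests on the bright probe set. Exactly equal values are common in this table: of all probe sets with an array above the floor, 39.1% had the same value on at least 1 pair of arrays. How the equal values arise is not known here, so the weight of the equal pair of the dim probe set cannot be judged.

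NFKBIE encodes IkB-epsilon, a slower inhibitor that follows a similar feedback course. Its single probe set read 20.6 with siRNA1 and 30.3 with siRNA2, against 42.9 in the control, which is 2.08-fold and 1.42-fold lower. All 3 values were above the floor, but within a few-fold of it. IER3, an immediate early gene induced by NF-kappaB and by growth factor signalling, has a product that affects cell survival. IER3 read 206 with siRNA1 and 266 with siRNA2, against 429 in the control, 2.08-fold and 1.62-fold lower. For both genes the siRNA1 array was lowest and the control array highest, the same order as for NFKBIA. That order was found for 1180 of the 12436 measured genes. The summed epithelial markers ran in it, and nearly all of that sum was KRT18. KRT7 had the order too, KRT8 read 21.5, 21.2 and 21.5, and KRT19, EPCAM and CDH1 lay at or below the floor. The summed level of the 4 mesenchymal markers (4862, 5280 and 5811), nearly all of it VIM, ran in the same order. Of these 4 only 1, VIM, had that order by itself. CDH2 and FN1 were highest with siRNA2, and ZEB1 was lowest with siRNA2. The part of the markers in the result was not tested.

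TNFAIP3 encodes a ubiquitin-editing enzyme that shuts down signalling to IKK, and it is a textbook NF-kappaB target. Its brighter probe set gave 81.2 with each siRNA, against 92.3 in the control, a ratio of -0.18 on the log2 scale for both. The equal pair is again of the kind that 39.1% of probe sets showed. Another TNFAIP3 probe set read 21.3 with siRNA1 and 22.2 with siRNA2, against 25.7 in the control, with log2 ratios of -0.27 and -0.21. Both probe sets were lower in the depleted cells, by much less than the bright probe set of NFKBIA or that of IER3. The values of all probe sets are shown in the plot of intensities.

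**Figure D1:**
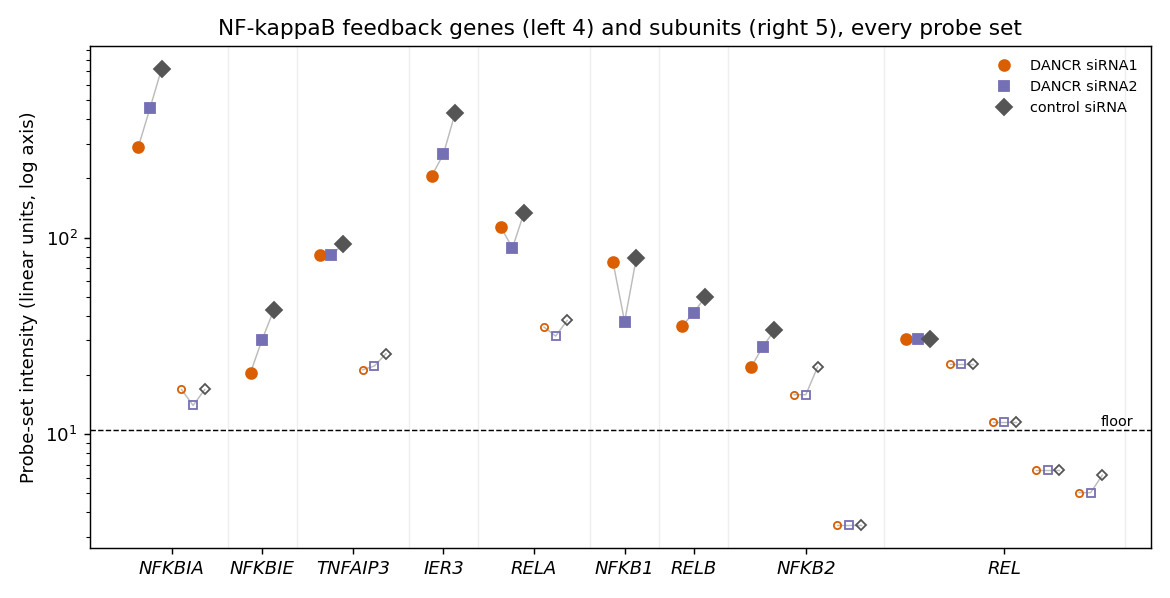
Probe-set intensity (linear units on a log axis) of the 4 measured feedback genes and the 5 subunits on the DANCR siRNA1, DANCR siRNA2 and control siRNA arrays, 1 point per array. Filled points are the brightest probe set of a gene, open points its other probe sets, grey lines join the 3 arrays, and the dashed line is the floor of 10.5. NFKBIA (290, 455 and 723) and IER3 (206, 266 and 429) stand out as bright and stepped, while the 3 REL probe sets above the floor lie flat.

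The second question was whether the subunits moved as well. RELA and NFKB1 were lowest with siRNA2, RELB and NFKB2 were lowest with siRNA1, and the REL probe sets above the floor read the same on all arrays. Of the 5 subunits, 0 were at least 2-fold lower with siRNA1, where 1.75% of all measured genes were. With siRNA2, 1 of the 5, NFKB1, was, where 1.21% of all measured genes were. It is among the genes with a mean intensity under 100, of which 0.721% were 2-fold lower with siRNA2.

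RELA encodes p65, the subunit that carries the main activation domain. It read 113 with siRNA1 and 88.5 with siRNA2, against 134 in the control, with log2 ratios of -0.24 and -0.60. A second RELA probe set read 35.1 with siRNA1 and 31.5 with siRNA2, against 37.9 in the control, for log2 ratios of -0.11 and -0.26. The 2 probe sets ordered the arrays alike, with siRNA2 lowest and the control highest.

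NFKB1 encodes p105, the precursor of p50, which is the usual partner of p65. Its single probe set read 75.2 with siRNA1 and 37.3 with siRNA2, against 78.4 in the control. The difference was 1.04-fold with siRNA1 and 2.10-fold with siRNA2, so the low value was found on the siRNA2 array only. That array also had the highest 3′/5′ ratios (14.4 for ACTB and 1.35 for GAPDH), and their part in the value was not tested. No other single-gene probe set of NFKB1 was there to set beside it.

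RELB and NFKB2 form the pair of the alternative NF-kappaB pathway, in which the NFKB2 precursor p100 is cut to p52. RELB read 35.4 with siRNA1 and 41.5 with siRNA2, against 49.9 in the control, with log2 ratios of -0.49 and -0.26. NFKB2 read 21.9 with siRNA1 and 27.8 with siRNA2, against 33.7 in the control, with log2 ratios of -0.62 and -0.28. Both genes followed the array order of NFKBIA, at lower intensity and with smaller gaps. The second NFKB2 probe set read 15.9 with each siRNA, against 21.9 in the control, and its last lay at 3.45 on all arrays, below the floor.

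REL encodes c-Rel, a subunit best known from lymphocytes. Its brightest probe set read 30.5 on all 3 arrays, and the next 2 read 22.9 and 11.5 on all 3. The remaining 2 lay below the floor, at 6.58 on every array and at 5.03 with each siRNA against 6.18 in the control. Of all probe sets with an array above the floor, 14.3% had the same value on all 3 arrays. Of the 15 member probe sets above the floor 3 did, and these were the 3 of REL. A flat REL is thus a value the deposited scale gives often, and how far REL could have moved cannot be judged from it.

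Set against each other, the groups differed more with siRNA1 than with siRNA2. The median log2 ratio was -1.06 for the 4 feedback genes and -0.24 for the 5 subunits with siRNA1, a difference of -0.81. With siRNA2 the medians were -0.59 for the feedback genes and -0.28 for the subunits, a difference of -0.31. Without probe sets of the _s_at and _x_at kinds, which leaves 2 feedback genes and 4 subunits, the differences were -0.27 with siRNA1 and -0.0207 with siRNA2. The median over all measured genes was 0.00 with each siRNA. The mean in place of the median brought the siRNA2 difference to -0.07. By any amount, 8 of 9 members were lower with siRNA1, where 39.5% of all measured genes were, and 8 of 9 with siRNA2, where 36.2% were. The 2 comparisons share the control array, so these counts do not add to each other. In each case the ninth was REL.

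**Figure D2:**
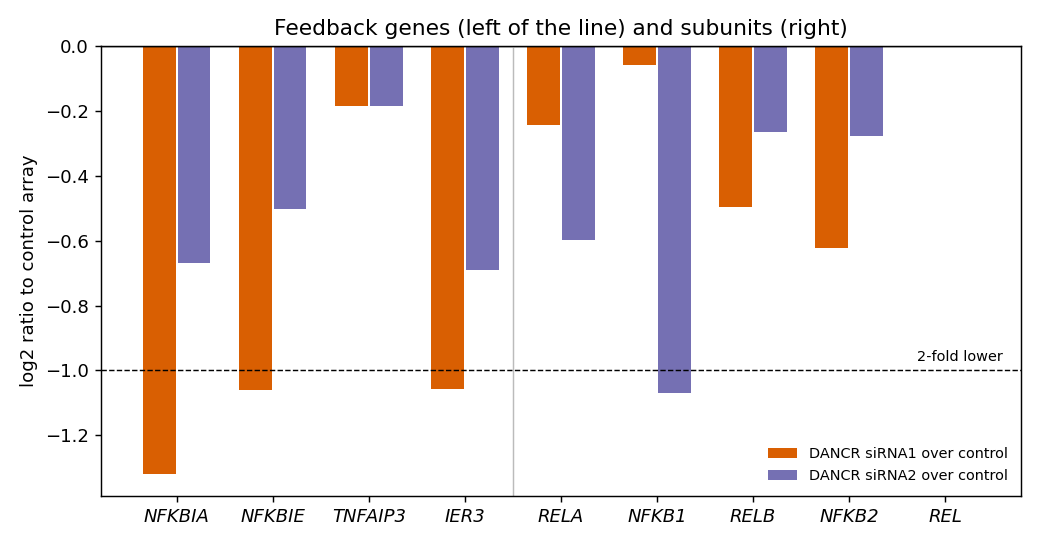
Log2 ratio of intensity to the control array for each measured member, with DANCR siRNA1 and with DANCR siRNA2, on the brightest probe set. Bars start at 0, there is 1 array per group and no error bar, and the dashed line marks 2-fold lower. NFKBIA, NFKBIE and IER3 pass it with siRNA1 (-1.32, -1.06 and -1.06) and NFKB1 with siRNA2 (-1.07), while REL is at 0.

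The siRNA arrays were also compared directly, which leaves the control array out. With siRNA1 relative to siRNA2, NFKBIA was 1.57-fold lower, NFKBIE 1.47-fold lower and IER3 1.29-fold lower, and TNFAIP3 was equal. NFKB2 was 1.27-fold lower and RELB 1.17-fold lower with siRNA1, whereas RELA was 1.28-fold higher and NFKB1 2.02-fold higher. In all, 5 of 9 members were lower with siRNA1 and 2 were higher, where 41.8% of all measured genes were lower and 36.7% higher. NFKB1 was the only member at least 2-fold apart, where 1.51% of measured genes were 2-fold higher and 2.4% 2-fold lower with siRNA1. DANCR itself differed little between these arrays, at 17.3% (siRNA1) and 18.8% (siRNA2) of its control level.

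**Figure D3:**
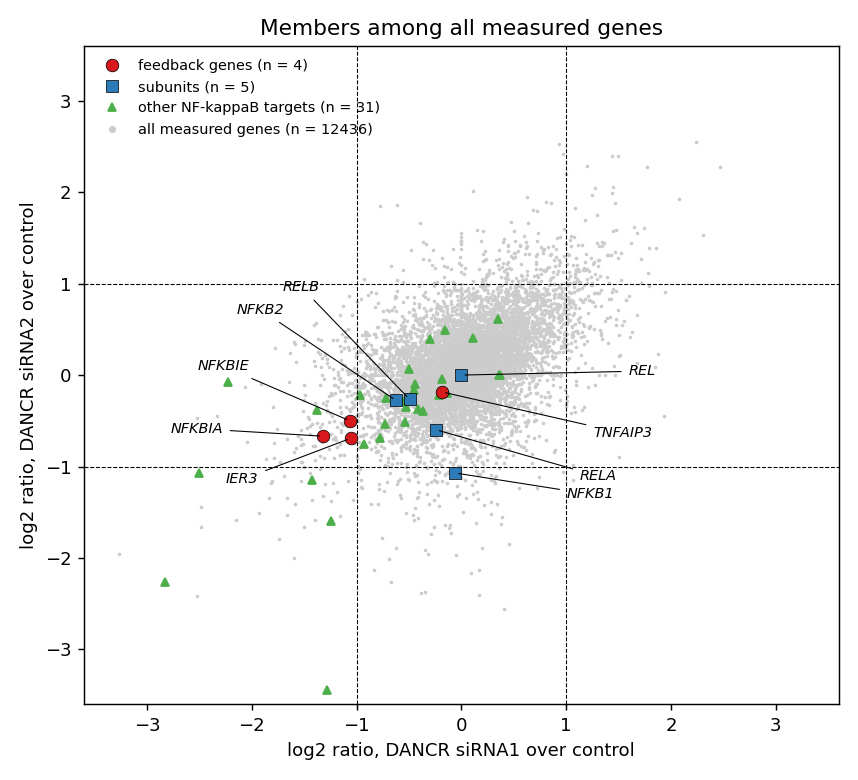
Log2 ratio to the control array with DANCR siRNA2 (vertical) against DANCR siRNA1 (horizontal) for 12436 measured genes in grey, with feedback genes, subunits and other NF-kappaB targets marked and dashed lines at 2-fold. Both axes share the control array, so the tilt of the cloud is no result. NFKBIA, NFKBIE and IER3 lie left of the cloud's centre, NFKB1 lies below it and REL sits at the origin.

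Genes with a pattern like that of the brightest feedback genes were listed by the distance between pairs of log2 ratios, over 5224 other genes with a mean intensity above 100. Nearest to NFKBIA were SMAD3, a transducer of TGF-beta signals (distance 0.10), NAV2 (0.10), SLCO4A1 (0.13), PLEK2 (0.15) and AHNAK (0.15). Nearest to IER3 were GMNN, an inhibitor of replication licensing (0.06), UHRF1 (0.11), GATC (0.12), LIG1 (0.13) and GUSB (0.13). IER3 ranked 18th by nearness to NFKBIA, at a distance of 0.26, so 17 genes lay nearer to NFKBIA than IER3 did. With 3 arrays, such likeness is a description of 2 ratios.

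Further parts of the pathway were then read from lists that do not contain the members. Of 43 other genes that NF-kappaB is known to induce, 31 were measured. With siRNA1, 25 of the 31 were lower, where 39.5% of all measured genes were, and 7 were at least 2-fold lower, where 1.75% were, with a median log2 ratio of -0.50. With siRNA2, 22 were lower, where 36.2% of all measured genes were, and 5 were at least 2-fold lower, where 1.21% were, with a median of -0.22. Of the 31, 0 were 2-fold higher with either siRNA, which is near the shares of all measured genes, 1.87% with siRNA1 and 2.15% with siRNA2. PLAU and CCND1 on this list are genes the study selected on these arrays, so they are no independent evidence of its direction. Of the 29 others, 5 were at least 2-fold lower with siRNA1 and 3 with siRNA2, with medians of -0.45 and -0.21. These include MMP9, the lowest of the list with siRNA1. Of the 28 left without MMP9, 4 and 2 were 2-fold lower, with medians of -0.45 and -0.21.

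BCL2A1, a survival factor of the BCL2 family, read 47.0 with siRNA1 and 57.2 with siRNA2, against 126 in the control, 2.68-fold and 2.21-fold lower. CXCL3, a neutrophil chemokine, read 26.2 and 20.6, against 62.0. MMP9, a matrix protease, read 23.6 and 34.8, against 167. These genes were dim to moderate. PLAU read 538 with siRNA1 and 1457 with siRNA2, against 3052 in the control. CCND1 read 430 and 96.2, against 1044, and unlike the others in this paragraph except CXCL3 it was lowest with siRNA2. IL6, PTGS2, CCL20 and VCAM1, targets that strong activation raises, were at or below the floor on all arrays.

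IKK and the kinases and adaptors that feed it had 20 measured genes and medians of -0.10 with siRNA1 and 0.13 with siRNA2. Of the 20, 11 were lower with siRNA1, where 39.5% of all measured genes were, and 7 were higher. With siRNA2, 5 were lower, where 36.2% were, and 13 were higher. Over all 12436 measured genes, 5257 were higher with siRNA1 and 5595 with siRNA2. On this list 0 were 2-fold from the control with either siRNA, which is near the shares of all measured genes. Those shares were 1.75% lower and 1.87% higher with siRNA1, and 1.21% lower and 2.15% higher with siRNA2. RBCK1, a subunit of the ubiquitin ligase that builds linear chains on the receptor complex, read 1093 with siRNA1 and 1052 with siRNA2, against 788 in the control. TRAF6, which relays interleukin-1 and Toll-like receptor signals, read 63.2 with each siRNA, against 48.0. TAB1 (16.9 and 14.4, against 11.5) and TRAF1 (16.3 and 19.5, against 23.8) were dim. TRAF1, itself a target, was the one of these 4 that was lower in depleted cells.

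Receptors had 10 measured genes of 16, with medians of 0.19 and 0.17, and the other 6 were at or below the floor, IL1R1 and TLR4 among them. TNFRSF21, a death receptor, read 136 with siRNA1 and 165 with siRNA2, against 91.9 in the control. LTBR, the lymphotoxin receptor that feeds the alternative pathway, read 149 and 197, against 117. TNFRSF12A, the receptor for TWEAK, read 440 and 349, against 532, and TLR6 read 17.9 and 19.9, against 13.5. The first 2 and TLR6 were higher with both siRNAs and TNFRSF12A was lower. Of 11 ligands, 3 were measured: IL18 read 30.5 and 23.7, against 18.3, LTB read 13.2 and 12.2, against 14.5, and IL1B read 13.5 on all arrays. TNF, LTA and IL1A lay at or below the floor on every array.

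Inhibitors outside the member set split both ways. Of 13 measured negative regulators, 7 were lower with siRNA1, where 39.5% of all measured genes were, and 6 were higher. With siRNA2, 8 were lower, where 36.2% were, and 5 were higher. The medians were -0.01 and -0.04. TNIP1, a binding partner of the TNFAIP3 protein and itself an NF-kappaB target, read 217 with siRNA1 and 260 with siRNA2, against 324 in the control. OTULIN, a deubiquitinase of linear chains, read 74.5 and 66.3, against 88.7. TAX1BP1, an adaptor of the TNFAIP3 protein, read 391 and 398, against 266, and RNF11, which works in the same complex, read 425 and 397, against 355. Of these 4, TNIP1 had the array order of NFKBIA, and TAX1BP1 and RNF11 were higher with both siRNAs. Among other IkB relatives, NFKBIZ read 37.8 with each siRNA, against 43.9, and NFKBID read 14.3 with each, against 13.5. NFKBIB read 67.5 with siRNA1 and 28.5 with siRNA2, against 33.5. That is 2.01-fold higher with siRNA1, where 1.87% of all measured genes were at least 2-fold higher. Its other probe sets were at 0.20 and 0.08 (log2) with siRNA1. The plot of the pathway lists sets these groups side by side.

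**Figure D4:**
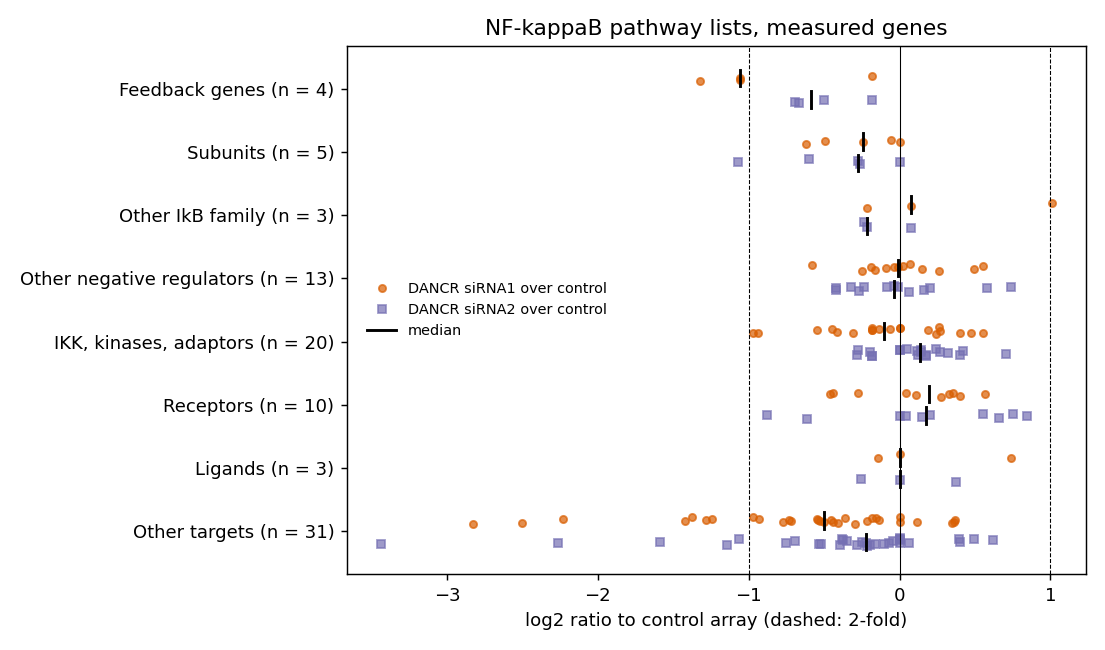
Log2 ratio to the control array of each measured gene in 8 NF-kappaB pathway lists, with DANCR siRNA1 and DANCR siRNA2, and black bars at the medians. Points are genes, with small vertical offsets for legibility, and dashed lines mark 2-fold. The medians are -1.06 and -0.59 for feedback genes, -0.24 and -0.28 for subunits, and -0.50 and -0.22 for other targets, while those of receptors are 0.19 and 0.17.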

How the data were processed

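The authors deposited 1 linear intensity per probe set and array. The submitters' processing notes name GCOS 1.4, and the normalisation and genome build are not given in the sources used here. Values ran from 1.03 to 9730 over 54675 probe sets. Annotation supplied for the array assigned 41097 probe sets to 1 gene, 1801 to several and 11777 to none, and only the first kind was used. Symbols were updated through gene IDs, of which 41043 matched. Values below the 50th percentile (10.5) were raised to it, and log2 ratios were taken. The probe set with the highest mean stood for its gene, and a gene counted as measured if that probe set exceeded the floor on any array. A difference was counted at 2-fold.

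With 1 array per group no test was run and no p-value is given, and the number of arrays limits the precision. The calculation was tested on simulated data, with changes planted only in genes well above the floor. That test does not cover changes in dim genes or equal values. The members and lists were chosen with earlier results of these data known. The genes named were all members, DANCR and up to 4 genes per pathway list, those with the largest smaller ratio among genes with the same direction in both siRNAs, plus any 2-fold in both. Marker genes, genes at the floor, CCL2, GCH1 and those of the closing section were named after their values were seen. Alternatives covered array scaling (median-centring, quantile), the floor, the choice of probe set, the fold and the list summary. Python 3.11.15, numpy 2.4.6, pandas 2.3.3 and matplotlib 3.10.9 were used.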

Additional observations from a re-analysis of the deposited data

Results flagged for a closer look

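No member was higher with one siRNA and lower with the other, by any amount, where 2739 of the 12436 measured genes were. Both ratios share the control array. Among 78 other measured pathway genes, 4 were opposite with at least 1 log2 unit between the siRNAs. That is a stricter count than the one for members, and its share over all measured genes was not counted. None of these differences was tested. NFKBIB, an IkB family inhibitor, read 67.5 with siRNA1 and 28.5 with siRNA2, against 33.5 in the control, a log2 ratio of siRNA1 over siRNA2 of 1.24, while its 2 further probe sets gave 0.20 and 0.00. SHARPIN, of the linear ubiquitin ligase, read 32.5 and 76.9, against 63.7 (-1.24). TNFRSF11A, the receptor RANK, read 229 and 99.3, against 182 (1.21), and its other probe set gave -0.01. TLR3, a sensor of double-stranded RNA, read 11.4 and 24.9, against 15.8 (-1.12), and its second probe set gave -0.55.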

How the results depend on the processing

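No paired analysis was possible because each group has 1 array, and no array could be left out. A value was taken to have moved when it shifted by over 0.23 (log2), the spread of siRNA1 against siRNA2 over all measured genes, and a count when it shifted by over 1.5 times. Of 158 recomputed counts and medians, 137 did not move and 21 did. Some of the 137 could not have moved. A lower floor or none leaves the members unchanged, because their brightest probe sets lie above the floor. Median-centring shifts all genes of an array alike, which leaves the feedback minus subunit difference as it was. Of the 21, 10 came from restricting genes to probe sets lacking the _s_at or _x_at suffix. This shrinks the lists, to 6 members (2 feedback genes and 4 subunits) in place of 9 and to 20 other targets in place of 31. It drops IER3, TNFAIP3 and RELA and leaves NFKBIA with its dim probe set, at 0.00 with siRNA1 and -0.27 with siRNA2. The median of the feedback genes with siRNA1 was then -0.53, the feedback minus subunit difference was -0.27 with siRNA1 and -0.0207 with siRNA2, 1 feedback gene was 2-fold lower with siRNA1, and 4 and 5 of the 6 members were lower with siRNA1 and siRNA2. Of the 20 other targets 14 and 12 were then lower, 3 of them 2-fold with each siRNA. The mean of members gave a difference of -0.0698 with siRNA2. The median over probe sets gave NFKBIA -0.66 with siRNA1. The floor at the 70th percentile gave -0.52 for NFKBIE, -0.18 for NFKB2 and -0.79 for the feedback median, all with siRNA1. At 1.5-fold, 1 subunit was lower with siRNA1 and 2 with siRNA2, 2 feedback genes with siRNA2, and 12 other targets with siRNA1. At 3-fold no feedback gene with siRNA1 and no subunit with siRNA2 was past the threshold (0 each), and 3 other targets were with each siRNA. Leaving PLAU and CCND1 out of the other targets, chosen after seeing the data, left 3 of 29 2-fold lower with siRNA2. Median-centring shifted the median of all genes to -0.04 and -0.08 and put REL at those values.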
